A study of Mus musculus with 9 samples.

Results

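The 10 genes described here encode core parts of the Notch pathway: the ligands Dll1, Dll3, Jag1 and Jag2, the receptors Notch1, Notch2 and Notch3, and the transcription factors Hes1, Hes6 and Hey1. They were taken by name from a table of 20189 genes, in which all 10 had a row and all 10 averaged at least 1 CPM (count per 1000000 counts). The set was chosen by the Notch roles of its genes and because of 1 measured value, the rise of Dll1 under Thr starvation, so the values of Dll1 are given as a description without a test, while the other 9 genes were tested together with every gene in the table. The cells were E14, a single established line of wild-type mouse embryonic stem (ES) cells, kept with serum and leukemia inhibitory factor. The treatment lasted 3 h. Unstarved cells had every amino acid, Thr-starved cells lacked threonine and Cys-starved cells lacked cysteine, as named by the sample titles, with 3 poly(A) RNA libraries per group. The treatment text supplied with the samples describes a SILAC medium for other amino acids, so the titles alone define the starved groups, and the medium used for Thr and Cys starvation is not given in the labels.

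In the Notch pathway a ligand on one cell binds a receptor on its neighbour, proteases release the intracellular part of the receptor, and this fragment joins the DNA-binding protein RBPJ and Mastermind coactivators in the nucleus. HES and HEY genes are the best known targets, and their products are basic helix-loop-helix repressors that hold down proneural genes and Delta-type ligands. In ES cells the pathway is known mainly for its part in the choice between self-renewal and neural differentiation.

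The libraries held 48763102 to 74962733 counts in the Thr-starved group, 57700492 to 62657358 in the Cys-starved group and 54294288 to 61459894 in unstarved cells. Of the counts from 1 to 20 in the table, 67.8% were even numbers. The cause was not tested, nor was whether both reads of a pair were counted, so the printed counts may exceed the number of RNA fragments. A fit on halved counts was among the alternatives. All 8 pluripotency markers examined were expressed, with a summed level of 3907 to 3932 CPM in unstarved, 3728 to 3754 CPM in Cys-starved and 4137 to 4217 CPM in Thr-starved libraries. Under Thr starvation 4 of the 8 rose and 4 fell, among them Klf4 (0.85 on the log2 scale) and Sox2 (0.44) upward and Nanog (-0.42) downward. In that comparison 63% of all genes were called (31.1% higher and 31.9% lower), and 76.6% of genes with at least 1 CPM. All counts of called markers are to be read beside those shares. The summed neural progenitor markers came to 210 to 215, 256 to 259 and 137 to 138 CPM in the same order. Their list was not uniform under Thr starvation: 1 of the 5 measured genes, Tubb3, fell, 2 rose (Sox1 by 0.88 and Nes by 0.11 on the log2 scale) and 2 were not called. Tubb3 made up most of the unstarved sum, at a mean of 147 CPM, and stood at 60.5 CPM in Thr-starved cells. The call of Nes was lost without Thr-starved replicate 1, and its value was 0.40 with trends in GC content and gene length removed. Mesoderm markers came to 8.34 to 9.96, 8.22 to 9.09 and 5.997 to 6.26 CPM, and endoderm markers to 6.29 to 6.75, 7.43 to 8.52 and 7.51 to 8.15 CPM. Of the 6 measured mesoderm genes, T and Eomes fell under Thr starvation, by 1.56 and 1.53, Kdr and Mesp2 rose by 0.65 each, and 2 were not called. The call of Mesp2 was lost without unstarved replicate 2 or Thr-starved replicate 1 or 3. Trophectoderm markers came to 51.1 to 53.1, 47.0 to 49.99 and 58.7 to 64.4 CPM. Tfap2c made up most of that sum, with a mean of 49.8 CPM in unstarved and 60.0 CPM in Thr-starved cells, and rose by 0.27, while Cdx2 fell by 1.32 (edgeR adjusted p = 4.4e-05). Fibroblast markers came to 13.5 to 13.7, 12.1 to 15.0 and 9.50 to 10.6 CPM. The marker genes named singly were chosen after their values were seen. In bulk RNA, fewer cells that express a gene and less of its RNA per cell cannot be told apart, and the part of these marker levels in the changes of the Notch genes was not tested. Nothing in the labels says that the 3 libraries of a group came from separate cultures, so p-values measure the spread between these libraries, which may be technical.

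Dll1 encodes Delta-like 1, a ligand that activates Notch receptors on adjacent cells. It was the lowest of the 4 ligands of the set in unstarved cells and the gene of the set with the largest difference after Thr starvation. Its level was 1.14, 1.65 and 1.34 CPM in the 3 unstarved libraries and 15.0, 13.4 and 15.2 CPM in the 3 Thr-starved libraries. Every Thr-starved library lay far above every unstarved library. The means were 1.38 ± 0.259 CPM (SD, n = 3) and 14.5 ± 0.991 CPM (SD, n = 3), a 10.5-fold difference, or 3.40 on the log2 scale (SE 0.116). In Cys-starved cells Dll1 stood at 1.52, 1.95 and 2.01 CPM, with a mean of 1.83 ± 0.265 CPM (SD, n = 3). These libraries overlapped those of unstarved cells, and the log2 difference was 0.41 (SE 0.149). Between the starved groups Dll1 was 7.96-fold higher under Thr starvation, 2.99 on the log2 scale (SE 0.109). The unstarved values rest on 69, 100 and 72 counts and the Thr-starved values on 736, 638 and 1112 counts, so counting error is larger at the unstarved end.

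Among the 14587 genes averaging 1 CPM or more, the Thr log2 difference of Dll1 ranked 5 from the top, and its Cys log2 difference ranked 856. Dll1 (ENSMUSG00000014773) lies on the minus strand at chr17:15367354-15376872 (GRCm38). The lincRNA A930024N18Rik is annotated on the opposite strand with its start 1872 bp from that of Dll1, and the pair share 867 exonic bases, 20.5% of the Dll1 exons. The libraries were made with a directional kit, but the strand setting used for counting is not given in the sources used here, and A930024N18Rik was not analysed here.

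**Figure D1:**
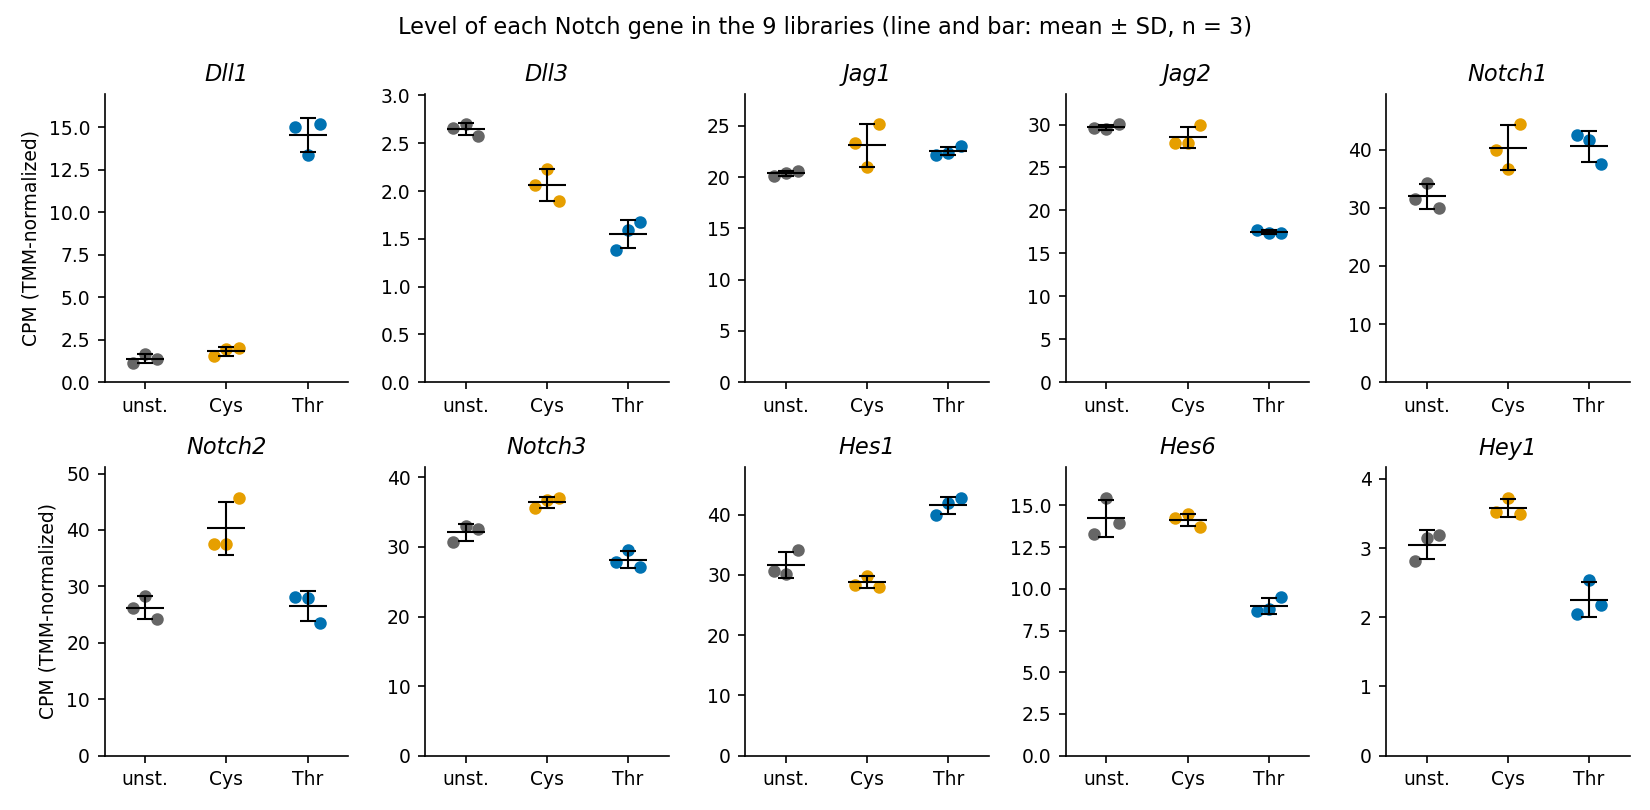
Level of each of the 10 Notch genes in CPM, normalized by the trimmed mean of M-values (TMM), with a linear axis from 0 for each gene. Points are the 9 libraries (unstarved, Cys-starved and Thr-starved), and the line and bar are the mean ± SD of 3 libraries. Dll1 stands near 1.38 CPM in unstarved and 14.5 CPM in Thr-starved cells, while Notch2 is raised in the Cys-starved libraries.

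The 300 bases around the annotated starts of Dll1 are printed because this is the gene whose RNA differed most. Those of Dll3 and Jag2 are printed because these ligands moved the other way under Thr starvation. All sequences are from RefSeq on GRCm38.p6, minus strand, reading from 250 bases before the start to 50 after it, and capitals mark matches to the motifs searched. The windows are chr17:15376883-15377182 and chr17:15375774-15376073 for the 2 starts of Dll1, chr7:28301736-28302035 for Dll3 and chr12:112929446-112929745 for Jag2.
Dll1, first window: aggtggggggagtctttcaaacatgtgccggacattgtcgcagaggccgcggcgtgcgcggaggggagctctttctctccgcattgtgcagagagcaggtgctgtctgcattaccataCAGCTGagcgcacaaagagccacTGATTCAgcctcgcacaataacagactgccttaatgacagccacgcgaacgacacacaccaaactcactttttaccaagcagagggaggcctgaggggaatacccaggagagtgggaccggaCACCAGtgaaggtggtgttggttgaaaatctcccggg
Dll1, second window: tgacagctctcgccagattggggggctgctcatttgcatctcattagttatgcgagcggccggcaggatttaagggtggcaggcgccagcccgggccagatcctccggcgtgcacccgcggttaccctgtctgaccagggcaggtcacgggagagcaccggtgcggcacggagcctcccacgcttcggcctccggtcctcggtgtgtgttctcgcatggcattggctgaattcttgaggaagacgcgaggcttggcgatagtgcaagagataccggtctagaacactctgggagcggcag
Dll3: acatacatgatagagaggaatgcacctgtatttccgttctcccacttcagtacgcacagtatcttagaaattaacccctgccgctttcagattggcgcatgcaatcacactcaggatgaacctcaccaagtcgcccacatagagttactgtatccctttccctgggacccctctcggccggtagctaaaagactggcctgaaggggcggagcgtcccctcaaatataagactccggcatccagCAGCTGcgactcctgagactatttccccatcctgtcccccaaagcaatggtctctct
Jag2: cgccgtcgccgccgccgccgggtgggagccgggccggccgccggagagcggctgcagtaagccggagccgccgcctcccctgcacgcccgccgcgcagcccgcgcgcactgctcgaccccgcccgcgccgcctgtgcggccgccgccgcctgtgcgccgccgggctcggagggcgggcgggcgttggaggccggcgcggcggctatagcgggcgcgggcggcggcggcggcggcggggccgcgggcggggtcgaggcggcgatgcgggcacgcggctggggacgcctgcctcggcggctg

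Windows were found for 8 of the 10 genes. In them, 7 motifs were searched on both strands: TGGGAA (the RBPJ core), CACGTG and CAGCTG (E-boxes, bound by basic helix-loop-helix factors), CACNAG (the N-box of HES proteins), TGANTCA (AP-1), TGACGTCA (the cAMP response element) and TGATGNAA (an ATF4 element). The shares of all 32851 mouse windows that hold them were 25.6%, 7.15%, 16.3%, 42.5%, 7.81%, 1.79% and 3.97% in that order. The first Dll1 window held CAGCTG starting 132 bases before the transcript start (position -132), TGATTCA at -109 and CACCAG at 14 bases after it. The second Dll1 window held none of the 7 motifs. The Dll3 window held CAGCTG at -7, the Jag1 window held CAGCTG at -82, and both Hes6 windows held CAGCTG, at -171 and -150. The windows of Notch1, Notch2 and Notch3 and the second window of Hes6 also held the N-box, in Hes6 at -237 and 16. The Jag2 window, of 86% G and C, held none of the motifs. The letters TGGGAA were in no window of the set, which says nothing about RBPJ binding elsewhere. A match of letters describes the sequence only.

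The comparison of Thr-starved with unstarved cells asked which Notch genes changed when threonine was withdrawn. A gene was called when its edgeR quasi-likelihood p, adjusted over all 20143 genes tested, was 0.05 or less. Of the 9 genes other than Dll1, 8 were called: Jag1, Notch1 and Hes1 rose, and Dll3, Jag2, Notch3, Hes6 and Hey1 fell. Notch2 was not called. Thr starvation moved much of the transcriptome, with 63% of all genes called (31.1% higher and 31.9% lower) and 76.6% of genes with at least 1 CPM, so most genes of like level were called as well. The libraries of the 2 groups did not overlap for 8 of the 9, beside 66.5% of all genes. The comparison of Cys-starved with unstarved cells called 6 of the 9: Jag1, Notch1, Notch2 and Notch3 rose, Dll3 and Hes1 fell, and Jag2, Hes6 and Hey1 were not called. Over all genes 36.3% were called there (17.5% higher and 18.8% lower), and 47.8% of genes with at least 1 CPM. The libraries did not overlap for 7 of the 9, beside 46.4% of all genes. Shares without overlap were not computed for genes with at least 1 CPM alone. Both comparisons use the same 3 unstarved libraries. Directly between the starved groups, 7 of the 9 were called, beside 62% of all genes (30.4% higher and 31.6% lower) and 75.9% of genes with at least 1 CPM. The libraries did not overlap there for 7, beside 65.8% of all genes. Hes1 was higher under Thr starvation, Dll3, Jag2, Notch2, Notch3, Hes6 and Hey1 were lower, and Jag1 and Notch1 were not called. With the trends in GC content and gene length removed, which are described with Jag2, 7 of the 9 were called under Thr starvation, 4 higher and 3 lower, and 6 between the starved groups, 3 higher and 3 lower. Without Cys-starved replicate 3 the number called under Cys starvation was 3 in place of 6.

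**Figure D2:**
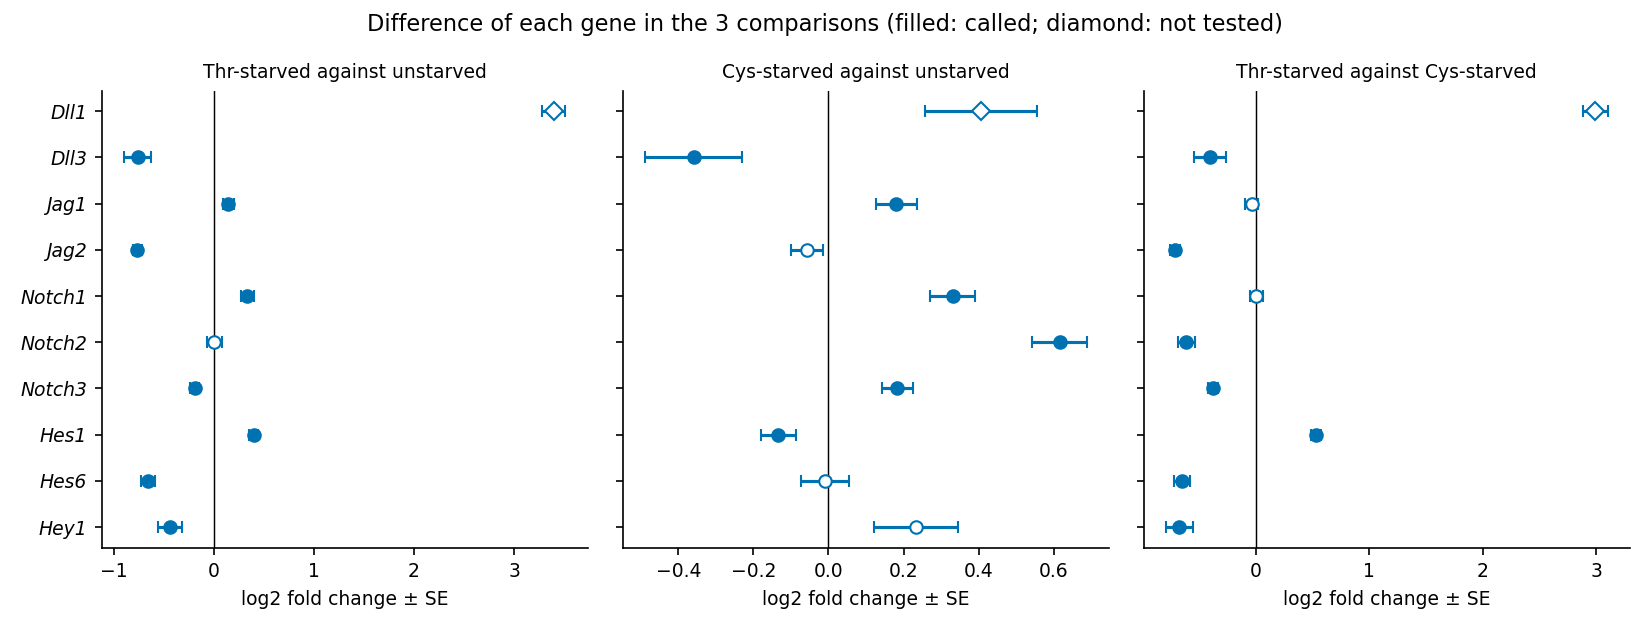
Log2 fold change ± SE of each Notch gene for Thr starvation and Cys starvation against unstarved cells and for Thr starvation against Cys starvation, 3 libraries per group. The horizontal scale differs between the 3 comparisons. Filled points passed an edgeR adjusted p of 0.05, open circles did not, and Dll1 (diamond) was not tested. Dll1 stands at 3.40 under Thr starvation, and Jag2 at -0.77 is the lowest.

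The other Delta-type ligand of the set, Dll3 (ENSMUSG00000003436, minus strand, chr7:28293553-28302238), is a divergent member that works mainly inside the cell and does not activate Notch on neighbouring cells. It fell under both starvations. Its level was 2.66, 2.697 and 2.58 CPM in unstarved, 2.06, 2.23 and 1.89 CPM in Cys-starved and 1.39, 1.59 and 1.68 CPM in Thr-starved libraries, and no group overlapped another. The log2 fold change was -0.76 under Thr starvation (SE 0.137, edgeR adjusted p = 4.0e-05) and -0.36 under Cys starvation (SE 0.130, edgeR adjusted p = 0.034). Thr-starved cells were below Cys-starved cells by a further -0.40 (SE 0.139, edgeR adjusted p = 0.016). The Cys call rested on the full set of libraries: it was lost without any one of unstarved replicates 1, 2 and 3 or Cys-starved replicates 1 and 3, with an edgeR adjusted p of up to 0.128, and DESeq2 gave an adjusted p of 0.064. The call between the starved groups was lost without Cys-starved replicate 2 or Thr-starved replicate 1, at edgeR adjusted p of 0.070 and 0.074. With trends in GC content and gene length removed, a fit described with Jag2, the Thr value of Dll3 was -0.38 (edgeR adjusted p = 0.020) and the value between the starved groups was -0.01 (edgeR adjusted p = 0.95).

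Jag1 and Jag2 encode the Serrate-type ligands Jagged 1 and Jagged 2, and they differed in direction under Thr starvation. Jag2 (ENSMUSG00000002799, minus strand, chr12:112907819-112929776) stood at 29.5, 29.5 and 30.0 CPM in unstarved, 27.8, 27.9 and 30.0 CPM in Cys-starved and 17.7, 17.3 and 17.3 CPM in Thr-starved libraries. The Thr-starved libraries lay below all others, while the Cys-starved libraries overlapped the unstarved ones. Under Thr starvation the log2 fold change was -0.77 (SE 0.045, edgeR adjusted p = 8.5e-13), -0.06 under Cys starvation (SE 0.042, edgeR adjusted p = 0.33) and -0.71 between the starved groups (SE 0.045, edgeR adjusted p = 3.8e-12).

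In this data set the libraries differed in how counts changed with the GC content and length of a gene, and Jag2, with a GC content of 61.9% in its longest transcript, lies where the libraries differ. The trend fitted over all genes at the GC content and length of Jag2 was 0.22 to 0.25 (log2) in unstarved, 0.22 to 0.23 in Cys-starved and -0.48 to -0.45 in Thr-starved libraries. In a fit without these trends, which was added once the data had been seen, the Thr log2 fold change of Jag2 was -0.06 (edgeR adjusted p = 0.24) and the value between the starved groups was -0.02 (edgeR adjusted p = 0.75). In the same fit Dll1 was at 3.59 under Thr starvation. The trends differed with the treatment. A technical bias and a response to starvation shared by genes of like GC content and length therefore cannot be told apart. A fit without the trends may also remove real changes, here and for the other genes below.

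Jag1 (ENSMUSG00000027276, minus strand, chr2:137081456-137116644) stood at 20.1, 20.4 and 20.6 CPM in unstarved, 23.3, 21.0 and 25.1 CPM in Cys-starved and 22.2, 22.4 and 23.0 CPM in Thr-starved libraries. Both starved groups lay above the unstarved one and overlapped each other. The rises were small, 0.15 on the log2 scale under Thr starvation (SE 0.055, edgeR adjusted p = 0.026) and 0.18 under Cys starvation (SE 0.055, edgeR adjusted p = 0.012), and the difference between the starved groups was -0.03 (SE 0.054, edgeR adjusted p = 0.60). The Thr call was lost without unstarved replicate 1 (edgeR adjusted p = 0.067) or Thr-starved replicate 3 (edgeR adjusted p = 0.083). The Cys call was lost without Cys-starved replicate 3 (edgeR adjusted p = 0.11), and the Cys value ranged from 0.12 to 0.25 over the 16 alternatives.

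Levels of different genes were compared per kilobase of exon. In unstarved cells Jag2 led the ligands at 4.26 CPM per kb, followed by Jag1 at 3.50, Dll3 at 0.928 and Dll1 at 0.326, and no neighbours in that order overlapped. In Cys-starved cells the order was Jag2 at 4.10, Jag1 at 3.97, Dll3 at 0.723 and Dll1 at 0.433 CPM per kb, with Jag2 and Jag1 overlapping. In Thr-starved cells Jag1 stood at 3.87, Dll1 at 3.44, Jag2 at 2.51 and Dll3 at 0.545 CPM per kb. Dll1 thus passed from the last place to the second, or to the first when the length of the longest transcript was used, at 4.05 against 4.01 for Jag1. As a share of the summed level of the 4 ligands per kb, Dll1 made up 3.62% ± 0.651 (SD, n = 3) in unstarved, 4.70% ± 0.642 (SD, n = 3) in Cys-starved and 33.2% ± 1.47 (SD, n = 3) in Thr-starved cells. The share of Jag2 was 47.3%, 44.4% and 24.2% in the same order. These levels and shares keep the GC and length trends, without which the Thr log2 fold change of Jag2 was -0.06 and that of Dll1 was 3.59. The fall of Jag2 itself was called only with the trends kept, while its share also drops as Dll1 rises. Places and shares without the trends were not computed. The summed level of the 4 ligands was 9.01 ± 0.0984 CPM per kb in unstarved, 9.22 ± 0.477 in Cys-starved and 10.4 ± 0.278 in Thr-starved cells (SD, n = 3 each).

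**Figure D3:**
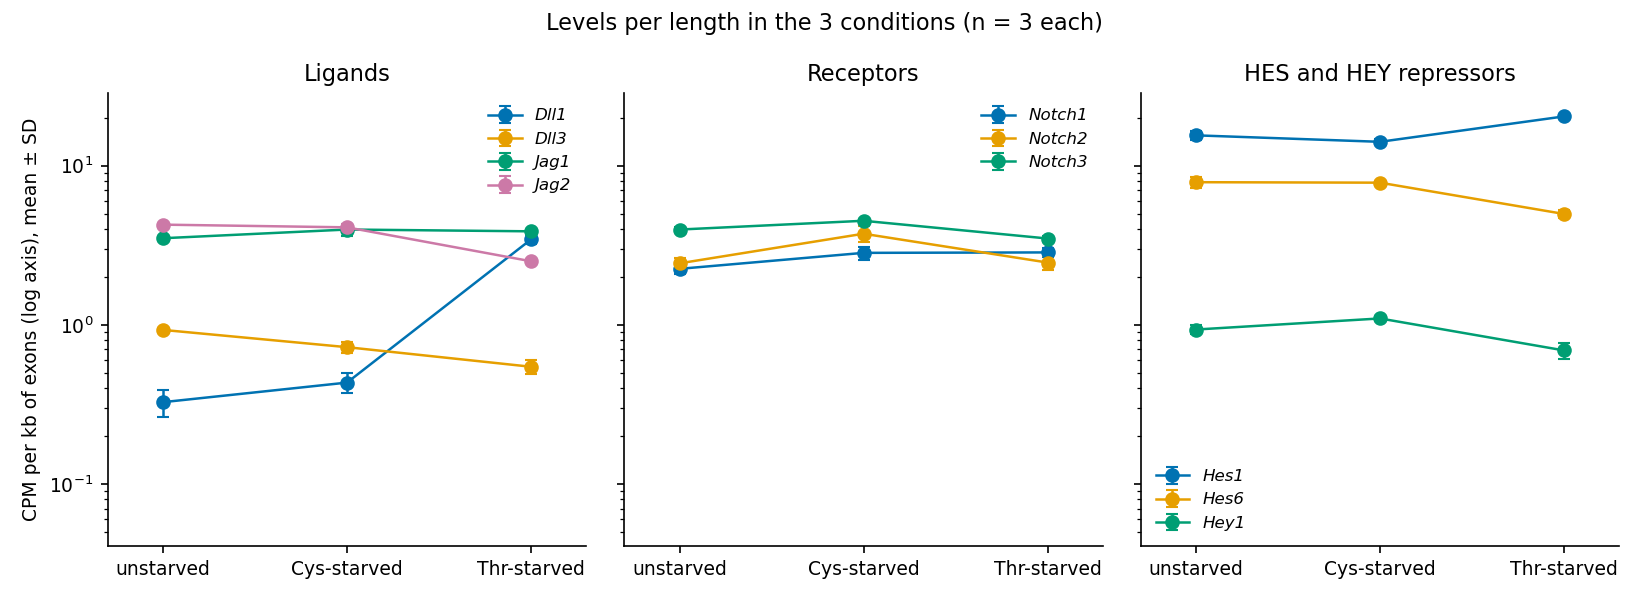
Mean level in CPM per kb of exon (log axis) of the 4 ligands, 3 receptors and 3 HES and HEY genes in unstarved, Cys-starved and Thr-starved cells, as points joined by lines that only guide the eye, with bars of ± SD (n = 3). Dll1 is the lowest of the 4 ligands in unstarved cells at 0.326 and lies near Jag1 in Thr-starved cells at 3.44.

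The receptors are single-pass membrane proteins that act as ligand-activated transcriptional regulators once cleaved. Their 3 genes behaved differently from each other. Notch2 (ENSMUSG00000027878, plus strand, chr3:98013527-98150361) was the receptor with the largest log2 fold change under Cys starvation. It stood at 26.2, 28.4 and 24.2 CPM in unstarved, 37.6, 37.5 and 45.7 CPM in Cys-starved and 28.1, 27.9 and 23.6 CPM in Thr-starved libraries. Every Cys-starved library lay above all others, and the Thr-starved libraries overlapped the unstarved ones. Cys starvation gave a log2 fold change of 0.62 (SE 0.072, edgeR adjusted p = 4.9e-07), and Thr starvation one of 0.01 (SE 0.075, edgeR adjusted p = 0.95), with -0.61 between the starved groups (SE 0.072, edgeR adjusted p = 1.4e-07). The Cys value stayed between 0.52 and 0.67 in all 16 alternatives.

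Notch1 (ENSMUSG00000026923, minus strand, chr2:26457903-26516663) rose under both starvations. It stood at 31.6, 34.3 and 30.0 CPM in unstarved, 39.9, 36.6 and 44.3 CPM in Cys-starved and 42.4, 41.7 and 37.6 CPM in Thr-starved libraries. Both starved groups lay above the unstarved one and overlapped each other. The log2 fold change was 0.34 under Thr starvation (SE 0.061, edgeR adjusted p = 4.1e-05), 0.33 under Cys starvation (SE 0.060, edgeR adjusted p = 0.00013) and 0.01 between the starved groups (SE 0.059, edgeR adjusted p = 0.94). With the GC and length trends removed the Thr value was 0.67 and the value between the starved groups was 0.41 (edgeR adjusted p = 2.5e-09). The gene 0610009E02Rik, on the opposite strand, shares 1068 exonic bases with Notch1, 7.50% of its exons, and stood at 0.10 to 0.22 CPM in the 9 libraries.

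Notch3 (ENSMUSG00000038146, minus strand, chr17:32120820-32166852) moved in opposite directions under the 2 starvations. It stood at 30.8, 33.0 and 32.5 CPM in unstarved, 35.6, 36.7 and 37.0 CPM in Cys-starved and 27.9, 29.5 and 27.2 CPM in Thr-starved libraries, with no overlap between groups. The log2 fold change was -0.19 under Thr starvation (SE 0.043, edgeR adjusted p = 0.00057), 0.18 under Cys starvation (SE 0.042, edgeR adjusted p = 0.0013) and -0.37 between the starved groups (SE 0.043, edgeR adjusted p = 7.4e-08). The direction under Thr starvation depended on whether the GC and length trends were kept. At the GC content and length of Notch3 these were 0.16 to 0.19 (log2) in unstarved, 0.18 to 0.26 in Cys-starved and -0.43 to -0.35 in Thr-starved libraries. With them removed the Thr log2 fold change was 0.37 (edgeR adjusted p = 1.2e-08) and the value between the starved groups was 0.22 (edgeR adjusted p = 3.3e-05), while the Cys value was 0.15.

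Per kilobase of exon, Notch3 led the receptors in every group, at 3.97 CPM per kb in unstarved, 4.50 in Cys-starved and 3.48 in Thr-starved cells. Notch2 stood at 2.43, 3.73 and 2.46 and Notch1 at 2.25, 2.83 and 2.85 CPM per kb in the same order, with Notch1 and Notch2 overlapping in unstarved cells. By the length of the longest transcript Notch1 came before Notch2 in all 3 groups, and first of the 3 receptors in Thr-starved cells at 4.27. The summed level of the 3 receptors was 8.65 ± 0.410 CPM per kb in unstarved, 11.1 ± 0.748 in Cys-starved and 8.80 ± 0.534 in Thr-starved cells (SD, n = 3 each). The order and sums keep the GC and length trends, without which the Thr log2 fold changes of Notch1, Notch2 and Notch3 were 0.67, 0.11 and 0.37, that of Notch2 not being called.

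The 3 HES and HEY genes did not share a direction under Thr starvation. Hes1 (ENSMUSG00000022528, plus strand, chr16:30064384-30067796), a repressor that oscillates in neural progenitors and ES cells and a direct target of Notch and of other signals, rose. It stood at 30.6, 30.1 and 34.1 CPM in unstarved, 28.3, 29.9 and 28.1 CPM in Cys-starved and 40.0, 41.9 and 42.8 CPM in Thr-starved libraries. The Thr-starved libraries lay above all others, and the Cys-starved libraries all lay below the unstarved ones. The log2 fold change was 0.40 under Thr starvation (SE 0.047, edgeR adjusted p = 1.0e-07) and 0.53 between the starved groups (SE 0.047, edgeR adjusted p = 1.0e-09). Under Cys starvation it was -0.13 (SE 0.047, edgeR adjusted p = 0.032), and this call was lost without unstarved replicate 3, Cys-starved replicate 1 or Cys-starved replicate 3, at edgeR adjusted p of 0.24, 0.096 and 0.10. The Cys value of Hes1 ranged from -0.17 to -0.077 over the 16 alternatives. The Thr value of Hes1 was 0.39 with the GC and length trends removed.

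Hes6 (ENSMUSG00000067071, minus strand, chr1:91411483-91414038), a divergent HES protein that counteracts Hes1 and is linked to neuronal differentiation, fell under Thr starvation. It stood at 13.3, 15.5 and 13.9 CPM in unstarved, 14.2, 14.5 and 13.7 CPM in Cys-starved and 8.65, 8.76 and 9.54 CPM in Thr-starved libraries. The Thr-starved libraries lay below all others, and the Cys-starved libraries lay within the range of the unstarved ones. Under Thr starvation it changed by -0.66 on the log2 scale (SE 0.068, edgeR adjusted p = 1.3e-08), with -0.01 under Cys starvation (SE 0.064, edgeR adjusted p = 0.93) and -0.65 between the starved groups (SE 0.067, edgeR adjusted p = 1.7e-08). With the GC and length trends removed the Thr value was -0.43.

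Hey1 (ENSMUSG00000040289, minus strand, chr3:8663359-8667256), a Notch target best known from the vascular system, was the least abundant of the 3 genes. It stood at 2.81, 3.14 and 3.19 CPM in unstarved, 3.52, 3.72 and 3.49 CPM in Cys-starved and 2.04, 2.54 and 2.18 CPM in Thr-starved libraries, with no overlap between groups. On the log2 scale it changed by -0.44 under Thr starvation (SE 0.120, edgeR adjusted p = 0.0029) and -0.67 between the starved groups (SE 0.117, edgeR adjusted p = 2.8e-05). Under Cys starvation it was 0.23 (SE 0.111, edgeR adjusted p = 0.11), which did not pass the test although the libraries were separate, as they were for 46.4% of all genes in that comparison. Per kilobase of exon, Hes1 was the highest of all 10 genes in every group, at 15.5 CPM per kb in unstarved, 14.1 in Cys-starved and 20.4 in Thr-starved cells. Hes6 stood at 7.87, 7.82 and 4.97 and Hey1 at 0.934, 1.10 and 0.690 CPM per kb in the same order.

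Genes with the pattern most like that of Dll1 were sought among 14586 others with at least 1 CPM, by the distance between their Thr and Cys log2 fold changes and those of Dll1. The nearest was the noncoding transcript 2410006H16Rik at a distance of 0.359, with log2 fold changes of 3.12 under Thr starvation and 0.63 under Cys starvation. Trpm1, which encodes a cation channel, followed at 0.360 with 3.07 and 0.25, Insm1, a zinc finger factor of neuroendocrine development, at 0.367 with 3.08 and 0.21, and Gadd45g, a stress-inducible gene, at 0.406 with 3.80 and 0.47. Tent5a, a noncanonical poly(A) polymerase gene, was the fifth at 0.661 with 2.84 and 0.76. In all, 13 genes lay within a distance of 1. Insm1 was at 1.36, 1.57 and 11.5 CPM in unstarved, Cys-starved and Thr-starved cells and Gadd45g at 1.13, 1.56 and 15.7 CPM. Trpm1, at 0.463, 0.554 and 3.91 CPM in the same order, reached a mean of 1 CPM only through the Thr-starved group.

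**Figure D4:**
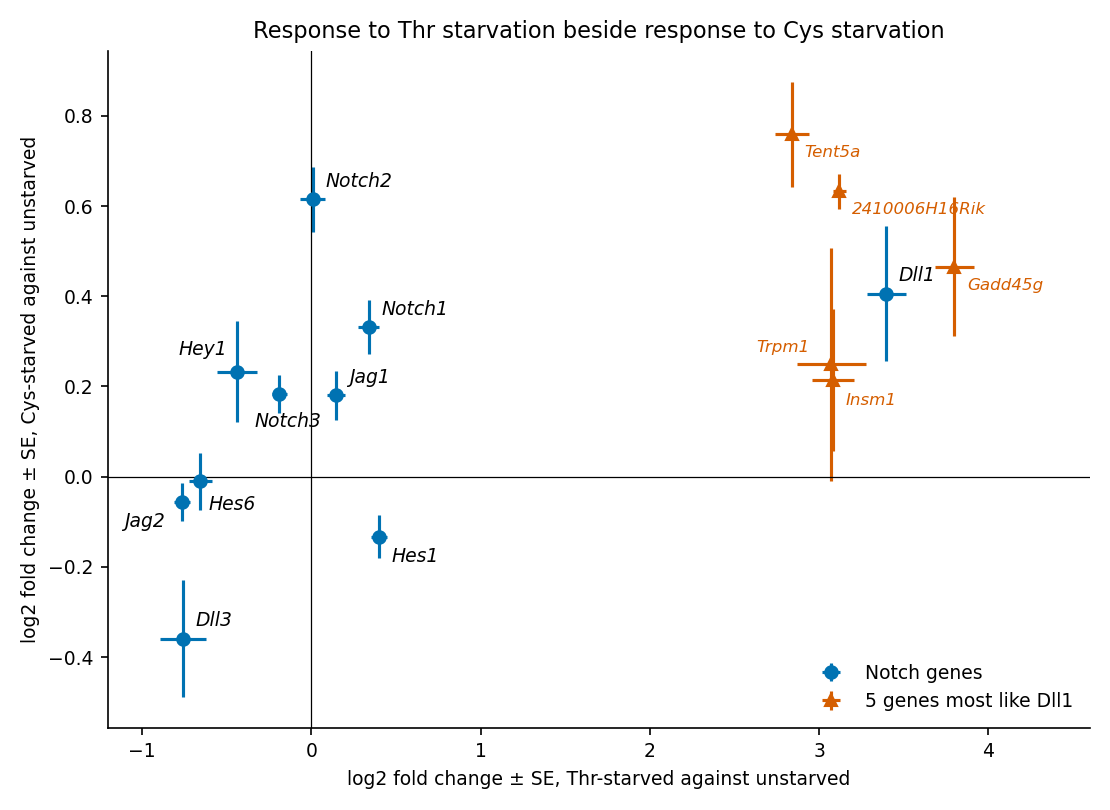
Log2 fold change ± SE of the 10 Notch genes (circles) and of the 5 genes most like Dll1 (triangles), Thr starvation on the horizontal and Cys starvation on the vertical axis, each against the same 3 unstarved libraries. Dll1 lies at 3.40 and 0.41 among the triangles, apart from the other 9 Notch genes, and Notch2 is the highest of the circles at 0.62 on the vertical axis.

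The rest of the pathway was followed in 73 further genes, of which 65 were measured and 50 averaged at least 1 CPM. Under Thr starvation 23 of the 65 rose, 25 fell and 17 were not called, which is 73.8% called beside 63% of all genes and 76.6% of genes with at least 1 CPM. With the GC and length trends removed the calls divided into 27 higher and 21 lower. Under Cys starvation 10 rose, 12 fell and 43 were not called, which is 33.8% beside 36.3% and 47.8%. Between the starved groups 22 were higher under Thr starvation, 27 were lower and 16 were not called, which is 75.4% beside 62% and 75.9%. The counts by role that follow are to be read beside those shares, 31.1% of all genes being called higher and 31.9% lower under Thr starvation and 17.5% and 18.8% under Cys starvation. The median log2 fold change of the 65 genes was -0.01, 0.02 and -0.03 in the 3 comparisons, and that of all genes was -0.02, 0.01 and -0.02.

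**Figure D5:**
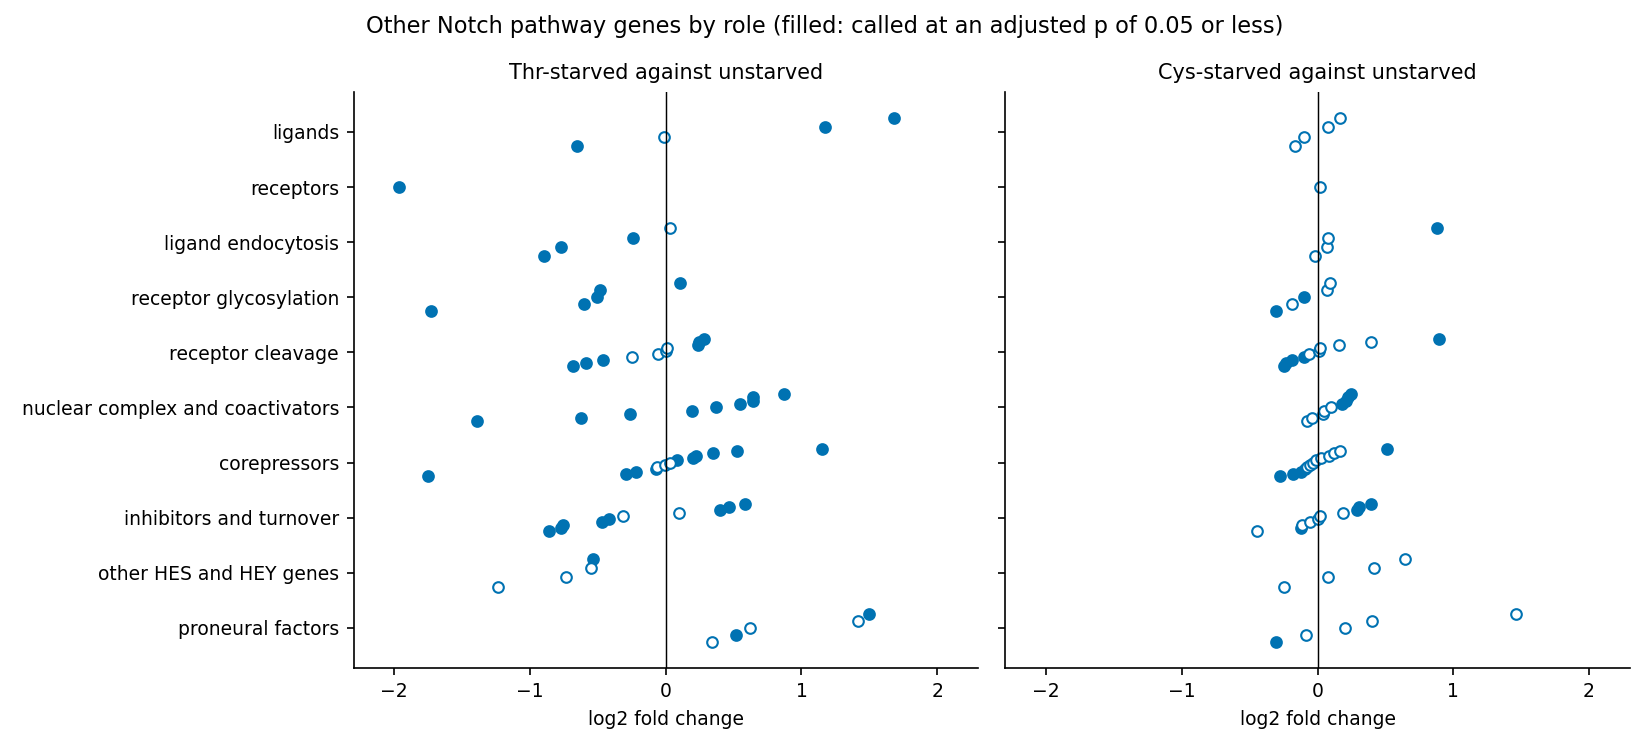
Log2 fold change of each measured gene of the other Notch pathway lists (65 genes) by role, for Thr starvation and for Cys starvation against unstarved cells. Filled points passed an edgeR adjusted p of 0.05. Spread is wider under Thr starvation, with 48 genes called against 22 under Cys starvation, and Notch4 and Lfng are among the lowest at -1.97 and -1.73.

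Of the remaining receptor and ligands, Notch4, a receptor gene best known from endothelium, stood at 13.5, 13.8 and 12.8 CPM in unstarved, 14.4, 12.6 and 13.7 CPM in Cys-starved and 3.55, 3.29 and 3.44 CPM in Thr-starved libraries. The Thr-starved libraries were well separated from the rest, at a log2 fold change of -1.97 (SE 0.077, edgeR adjusted p = 6.5e-16), or -1.27 with the GC and length trends removed. Among the 4 other ligands, 2 rose under Thr starvation and 1 fell. Dll4, a Delta-type ligand named outside the rule, was at 0.0662, 0.0165 and 0.167 CPM in unstarved and 0.265, 0.252 and 0.273 CPM in Thr-starved libraries (log2 fold change 1.68, SE 0.583, edgeR adjusted p = 0.015), and its call was lost without unstarved replicate 1 or 2. Its log2 fold change ranged from 1.196 without unstarved replicate 2 to 2.61 without unstarved replicate 3. Dner, a noncanonical neuronal ligand, rose by 1.17 on the log2 scale (SE 0.196, edgeR adjusted p = 1.7e-05), from 0.832 ± 0.200 to 1.87 ± 0.152 CPM (SD, n = 3 each). With 0.745 CPM in Cys-starved cells, Dner reached a mean of 1 CPM only through the Thr-starved group. Dlk1, a noncanonical ligand held to inhibit Notch, fell by 0.65 (SE 0.145, edgeR adjusted p = 0.00045). None of the 4 was called under Cys starvation.

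Of the 4 measured ubiquitin ligases that act in ligand endocytosis, 3 fell under Thr starvation and none rose. With the GC and length trends removed, 2 were called lower (Neurl1b and Mib1) and 1 higher (Mib2), Mib1 being at -0.22 (edgeR adjusted p = 2.3e-07). Neurl1a fell by 0.77, though by 0.05 with the GC and length trends removed, where the call was lost. Mib2 stood at 32.1, 29.4 and 30.6 CPM in unstarved, 57.4, 56.2 and 56.2 CPM in Cys-starved and 26.4, 26.1 and 25.6 CPM in Thr-starved libraries. No libraries of different groups overlapped, and Mib2 rose by 0.88 under Cys starvation (SE 0.038, edgeR adjusted p = 4.6e-14) and fell by 0.24 under Thr starvation (SE 0.041, edgeR adjusted p = 2.1e-05). The Thr direction turned to 0.28 with the GC and length trends removed, and the Cys value was 0.89.

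The genes of 5 enzymes that glycosylate the receptors divided into 4 that fell under Thr starvation and 1 that rose. All 3 Fringe genes, whose enzymes set how Notch reads Delta and Jagged ligands, fell. Lfng stood at 8.50, 7.96 and 8.27 CPM in unstarved, 6.92, 6.06 and 7.04 CPM in Cys-starved and 2.51, 2.14 and 2.71 CPM in Thr-starved libraries. The 3 groups did not overlap, with a log2 fold change of -1.73 under Thr starvation (SE 0.099, edgeR adjusted p = 5.2e-13) and -0.31 under Cys starvation (SE 0.085, edgeR adjusted p = 0.0067), the latter lost without Cys-starved replicate 2. Rfng fell by 0.60 and Mfng by 0.50 under Thr starvation, and both calls held with the GC and length trends removed, at -0.31 each. Poglut1, an O-glucosyltransferase gene, rose by 0.10, a call lost with those trends removed.

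The proteases that cut the receptor showed 3 genes up, 3 down and 4 not called under Thr starvation. The genes for the surface proteases Adam10 and Adam17 fell by 0.69 and 0.46 on the log2 scale, and that of the convertase Furin fell by 0.59 (by 0.28 with the GC and length trends removed). Psen2 and Psenen, which encode subunits of γ-secretase, rose by 0.24 each, the call of Psen2 being lost without unstarved replicate 1, unstarved replicate 3 or Thr-starved replicate 3. Under Cys starvation 1 gene rose and 4 fell. Aph1c, another γ-secretase subunit gene, rose by 0.89 (SE 0.245, edgeR adjusted p = 0.0058) from a low mean of 0.555 CPM, and Psenen, Adam10 and Adam17 fell by 0.25, 0.19 and 0.24.

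Of the 9 measured genes of the nuclear complex and its coactivators, 6 rose and 3 fell under Thr starvation, and under Cys starvation 4 rose and none fell. Snw1, a transcriptional coregulator that also belongs to the spliceosome, rose from 81.5 ± 2.66 to 149 ± 2.32 CPM (SD, n = 3 each), by 0.87 on the log2 scale (SE 0.029, edgeR adjusted p = 4.0e-17). The acetyltransferase genes Kat2b and Ep300 rose by 0.65 and 0.64, and Ep300 also rose by 0.25 under Cys starvation. Of the Mastermind genes, Maml2 fell by 0.62 and Maml3 by 1.39, while Maml1, at 37.7 CPM the highest of the 3 in unstarved cells, rose by 0.37 (0.67 with the GC and length trends removed). Kat2a fell by 0.27, a direction that turned to 0.02 with the GC and length trends removed. Rbpj itself, the DNA-binding core of the complex, rose by 0.19 from 372 ± 17.0 to 425 ± 7.03 CPM (SD, n = 3 each), and this call was lost with those trends removed, at 0.03. Rbpj, Maml1 and Maml3 were named outside the rule, as were Aph1c, Tle2, Tle3, Numbl, Mib1 and Neurl1b, all with their values seen.

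Among the 13 corepressor genes, 6 rose and 4 fell under Thr starvation. Spen, which binds RBPJ at silent targets, stood at 101, 105 and 93.9 CPM in unstarved and 232, 229 and 205 CPM in Thr-starved libraries, a log2 fold change of 1.15 (SE 0.050, edgeR adjusted p = 3.7e-15). In Cys-starved libraries it stood at 103, 103 and 119 CPM, overlapping the unstarved ones. Cir1 rose by 0.53 under Thr and by 0.51 under Cys starvation, and Hdac2, a histone deacetylase gene, rose by 0.35 under Thr starvation (0.18 with the GC and length trends removed). Of the Groucho-family genes, Tle4, Tle1 and Tle2 fell by 0.29, 0.22 and 1.75 under Thr starvation, and Tle3 rose by 0.22 (0.37 with those trends removed). The related Aes fell by 0.07, a call lost without unstarved replicate 2 or Thr-starved replicate 1. Its direction turned to 0.11 with the GC and length trends removed. Tle4 fell by 0.27 under Cys starvation, whereas the call of Tle1 under Thr starvation was lost with those trends removed.

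The genes of Notch inhibition and turnover gave 3 rises and 5 falls among 10 under Thr starvation. The Deltex genes Dtx1, Dtx2 and Dtx4 fell by 0.77, 0.86 and 0.76, and Dtx1 lost its call with the GC and length trends removed, at -0.12. Dtx3 rose by 0.59 under Thr and by 0.39 under Cys starvation. Itch, a ubiquitin ligase gene, and Numb, an endocytic inhibitor of Notch, rose by 0.47 and 0.40 under Thr starvation, and Itch stood at 0.25 with those trends removed. Numbl, a relative of Numb, fell by 0.42, or by 0.21 with the trends removed. Under Cys starvation 3 of the 10 genes rose, namely Dtx3, Numb (by 0.30) and Numbl (by 0.29), and 1 fell. Fbxw7, which marks the active Notch fragment for degradation, fell by 0.12 under Cys starvation, a call lost without unstarved replicate 2 or 3 or Cys-starved replicate 1 or 3, and in a fit of the 2 groups alone. Of the 4 other HES and HEY genes measured, Hey2 alone was called under Thr starvation, falling by 0.54. Of the 5 proneural factor genes measured, 2 rose and none fell under Thr starvation. Neurod1 rose by 0.52 (SE 0.100, edgeR adjusted p = 9.3e-05), from 4.17, 3.92 and 3.77 CPM in unstarved to 5.31, 5.72 and 5.93 CPM in Thr-starved libraries, and fell by 0.31 under Cys starvation, a call lost without unstarved replicate 1 or 2 or Cys-starved replicate 2 or 3.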

How the data were processed

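RNA-seq of 9 libraries of E14 ES cells was analysed, 3 per group. The deposited table of counts was made by the authors with STAR 2.7.4a on GRCm38 and HTSeq, per the submitters' processing notes. Strand and overlap settings of HTSeq are not given in the sources used here. The deposited table of normalized values, a signal that the authors scaled with DESeq2 size factors, was used only for its factors in an alternative fit. Groups came from the sample titles. Genes with at least 1 count over the 9 libraries (20143 of 20189) were fitted together with edgeR 4.0.16 in R 4.3.3 (TMM normalization, quasi-likelihood F test, 1 coefficient per group, all 9 libraries), and p-values were adjusted over all of them by the Benjamini-Hochberg method. The common coefficient of variation was 3.53%. The code was tested on simulated data. CPM are TMM-normalized, and lengths, GC content and coordinates are from the GENCODE annotation of GRCm38. Overlapping and near-identical genes were sought by BLAST 2.17.0 (at least 95% identity over 43 bases), and the only matches in the table overlap a member. Named genes were the 10 members, the genes that overlap them, the 5 most like Dll1 by Euclidean distance, and from each pathway list the 3 largest rises and 3 largest falls called under Thr starvation and the largest of each direction under Cys starvation, among genes with at least 1 CPM (1 of these genes is not reported here). Members, lists and tests were chosen with earlier results of these data known. Alternatives were DESeq2 1.42.0, other scalings and filters, the 2 groups alone, halved counts, a replicate block, leaving out each library, and GC content and length trends removed by loess (span 0.3), the last chosen after seeing the data. Sequences are from RefSeq.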

Additional observations from a re-analysis of the deposited data

How the results depend on the processing

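Of the 9 counts of called genes, members and other pathway genes in the 3 comparisons, only 1 moved by over 1.5 times: without Cys-starved replicate 3, 3 members were called under Cys starvation in place of 6. Leaving out 1 library gave 12096 to 12207 called genes under Thr starvation, 6520 to 6640 under Cys starvation and 11788 to 12008 between the starved groups. It gave 7 to 8, 3 to 6 and 6 to 7 called members, and 46 to 49, 18 to 24 and 44 to 48 called pathway genes. With the deposited size factors the Cys calls divided into 2787 higher and 4786 lower in place of 3523 and 3790, and those between the starved groups into 6756 and 5862 in place of 6123 and 6365. The replicate block gave 12488, 7063 and 12334 called genes and 8, 6 and 7 called members. Same-numbered libraries deviated together little (mean correlations 0.01, -0.06 and -0.14), so the numbers were not taken as pairs, and in only 1 of 9 cases did a library correlate best with its own number.

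Among the 10 members, the log2 fold changes that reversed lay near 0 or turned when the GC content and length trends were removed. Removing those trends turned Notch3 to 0.37 under Thr starvation and 0.22 between the starved groups, and Jag1 to 0.0094 between the starved groups. For Notch2 under Thr starvation the values were -0.0023 with counts halved and -0.047, -0.035 and -0.033 without unstarved replicate 3, Thr-starved replicate 1 and Thr-starved replicate 2, out of a range of -0.047 to 0.093 over the libraries left out. For Hes6 under Cys starvation they were 0.054 without unstarved replicate 2 and 0.011 without Cys-starved replicate 3 (range -0.061 to 0.054). For Jag1 between the starved groups they were 0.0097 with the deposited size factors and 0.028 without Cys-starved replicate 3 (range -0.10 to 0.028). For Notch1 between the starved groups they were -0.0036 with at least 10 counts in every library, -0.00041 with counts halved, and -2.5e-05, -0.058, -0.021 and -0.014 without Cys-starved replicates 1 and 2 and Thr-starved replicates 1 and 2 (range -0.058 to 0.079). The cause was not tested. Depth limits Dll1, Dll3 and Hey1 most, the unstarved Dll1 counts being 69 to 100.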

Other observations

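The chromosomal neighbours of Dll1 were looked up by position after its values were seen. Fam120b, which starts 19329 bp beyond the 5′ end of Dll1, fell by 0.17 under Thr starvation (SE 0.053, edgeR adjusted p = 0.0093) and rose by 0.25 under Cys starvation (SE 0.051, edgeR adjusted p = 0.00047). Gm5091, 119436 bp beyond the 3′ end, rose by 1.38 under Thr starvation (SE 0.105, edgeR adjusted p = 8.9e-11) and by 0.66 under Cys starvation (SE 0.110, edgeR adjusted p = 5.1e-05). Gm49668, 44929 bp beyond the 5′ end and at a mean of 0.179 CPM, was not called, at 0.36 under Thr starvation (SE 0.633, edgeR adjusted p = 0.64) and 0.15 under Cys starvation (SE 0.631, edgeR adjusted p = 0.89). Ermard, 277309 bp beyond the 3′ end, rose by 0.48 under Thr starvation (SE 0.039, edgeR adjusted p = 2.1e-10), and its Cys log2 fold change was 0.07 (SE 0.039, edgeR adjusted p = 0.16).

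Of the neural progenitor markers, Tubb3, a neuronal tubulin gene, stood at 144, 148 and 150 CPM in unstarved, 181, 183 and 177 CPM in Cys-starved and 60.0, 59.8 and 61.6 CPM in Thr-starved libraries. It rose by 0.29 under Cys starvation (SE 0.026, edgeR adjusted p = 7.9e-09) and fell by 1.28 under Thr starvation (SE 0.027, edgeR adjusted p = 1.5e-20). Sox1, an early neural transcription factor gene, stood at 8.17, 8.98 and 7.96 CPM in unstarved, 12.5, 11.8 and 11.6 CPM in Cys-starved and 14.5, 16.7 and 15.1 CPM in Thr-starved libraries, and rose under both starvations, by 0.51 (SE 0.070, edgeR adjusted p = 3.8e-06) and 0.88 (SE 0.069, edgeR adjusted p = 1.3e-10). Both genes were chosen after their values were seen.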
